A study of Mus musculus with 24 samples.

Results

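MHC and antigen presentation genes were followed in the hippocampus of 3xTg-AD mice and their wild-type controls on 3 diets. The 10 genes, out of 21793 rows in the deposited table, were chosen by name: the class I heavy chains H2-K1, H2-D1 and H2-T23, the class I light chain B2m, the peptide transporter subunits Tap1 and Tap2, the class II invariant chain Cd74, and the class II chains H2-Aa, H2-Ab1 and H2-Eb1. The 3xTg-AD line (3xTg below) carries mutant human APP and tau transgenes driven by a mouse Thy1 cassette, which works mainly in neurons, and serves as a model of Alzheimer's disease. The controls (WT below) were B6129SF2/J mice, a hybrid stock whose H2 alleles need not match those of the 3xTg line in each mouse. All mice were female, and the series counts 1 hippocampus per library and 3 to 5 mice a group, so replicates are mice. Mice entered the study at 3 months of age and ate their diet for 6 months. The ketogenic diet (90% long-chain triglycerides, 10% protein, no carbohydrate, 6.7 kcal/g) was given to 5 3xTg and 4 WT mice. The medium-chain triglyceride diet (MCT, 4.1 kcal/g: 70% carbohydrate, 10% protein, 10% medium-chain and 10% long-chain triglycerides) was given to 4 3xTg and 4 WT mice. The control diet, with the same carbohydrate, protein and energy as MCT but with 20% long-chain and no medium-chain triglycerides, was given to 3 3xTg and 4 WT mice.

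Class I molecules present peptides from inside the cell to CD8 T cells. A heavy chain pairs with B2m, and TAP1 with TAP2 carries peptides made by the proteasome into the endoplasmic reticulum for loading. H2-K1 and H2-D1 are classical heavy chains, while H2-T23 encodes Qa-1b, which presents leader peptides to NK cell receptors. Class II molecules present peptides taken up from outside the cell, and CD74 guides their chains and keeps the groove closed until loading. In brain, interferons raise class I genes in many cell types, whereas class II genes are carried mainly by border macrophages, dendritic cells and activated microglia.

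The promoters of 5 members are shown because interferon and the MHC enhanceosome are known to act through short elements upstream of class I and class II genes. These 5 are the members in the promoter table that held an interferon element, a kappaB-type site, or the motif pair described below. Each run lies directly upstream of the RefSeq start on GRCm38.p6 and reads 5′ to 3′ on the gene's strand. Capitals mark matches on either strand to GAAANNGAA and GAANNGAAA (spellings of the interferon element, the second added after the sequences were seen), GGGNNTTCC (kappaB-type site), TGACG (core of the X2 box) and ATTGG (Y box).
B2m, chr2:122147507-122147686, plus strand: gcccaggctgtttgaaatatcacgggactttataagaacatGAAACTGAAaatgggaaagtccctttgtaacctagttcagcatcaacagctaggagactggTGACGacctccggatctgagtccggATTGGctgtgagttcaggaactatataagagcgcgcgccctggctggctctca
H2-T23, chr17:36032702-36032881, minus strand: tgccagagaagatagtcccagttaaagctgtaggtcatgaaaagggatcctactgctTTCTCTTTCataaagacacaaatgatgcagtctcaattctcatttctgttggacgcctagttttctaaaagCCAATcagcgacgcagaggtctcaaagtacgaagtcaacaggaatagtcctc
H2-K1, chr17:34000348-34000527, minus strand: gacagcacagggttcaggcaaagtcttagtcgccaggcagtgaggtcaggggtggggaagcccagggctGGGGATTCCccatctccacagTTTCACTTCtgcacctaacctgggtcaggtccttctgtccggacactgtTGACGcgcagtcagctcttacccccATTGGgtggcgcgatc
H2-D1, chr17:35262914-35263093, plus strand: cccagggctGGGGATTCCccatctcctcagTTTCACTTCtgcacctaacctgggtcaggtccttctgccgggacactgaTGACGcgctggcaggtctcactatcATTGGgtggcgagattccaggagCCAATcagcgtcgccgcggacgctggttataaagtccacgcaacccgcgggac
H2-Aa, chr17:34287824-34288003, minus strand: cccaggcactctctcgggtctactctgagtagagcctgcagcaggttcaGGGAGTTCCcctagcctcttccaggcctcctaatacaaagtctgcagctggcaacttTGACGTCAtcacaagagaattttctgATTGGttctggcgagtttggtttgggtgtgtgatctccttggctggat

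The promoter table held 7 of the 10 members, and Tap2, Cd74 and H2-Ab1 were not among them. Tap1 and H2-Eb1 were in it but are not printed. They held TGACG or ATTGG, but no pair as described next, no interferon spelling and no kappaB-type letters. TGACG followed by ATTGG on the gene's strand, 20 to 30 bases apart, stood in H2-K1, H2-D1 and B2m with 25 bases between the starts of both motifs and in H2-Aa with 26, while 0.435% of the 32851 promoter windows in the table held such a pair on either strand. GAAANNGAA matched in B2m at -139 and in H2-T23 at -123 (reverse strand), against 8.56% of all windows, and GAANNGAAA in H2-K1 at -90 and in H2-D1 at -150 (both on the reverse strand), against 7.52%. Because the second spelling was added after the sequences were seen, its share is no test of these matches. The share of windows with either spelling is not given. The kappaB-type letters stood in H2-K1, H2-D1 and H2-Aa, against 5.82% of all windows, and TGACG and ATTGG alone in 20.8% and 37.4%. Longer spellings of the kappaB-type site were not searched, so an absent match, as in B2m, does not show that a promoter lacks such a site. TGACG and its reverse complement overlap in H2-Aa. A match describes letters and no binding was measured here.

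**Figure D1:**
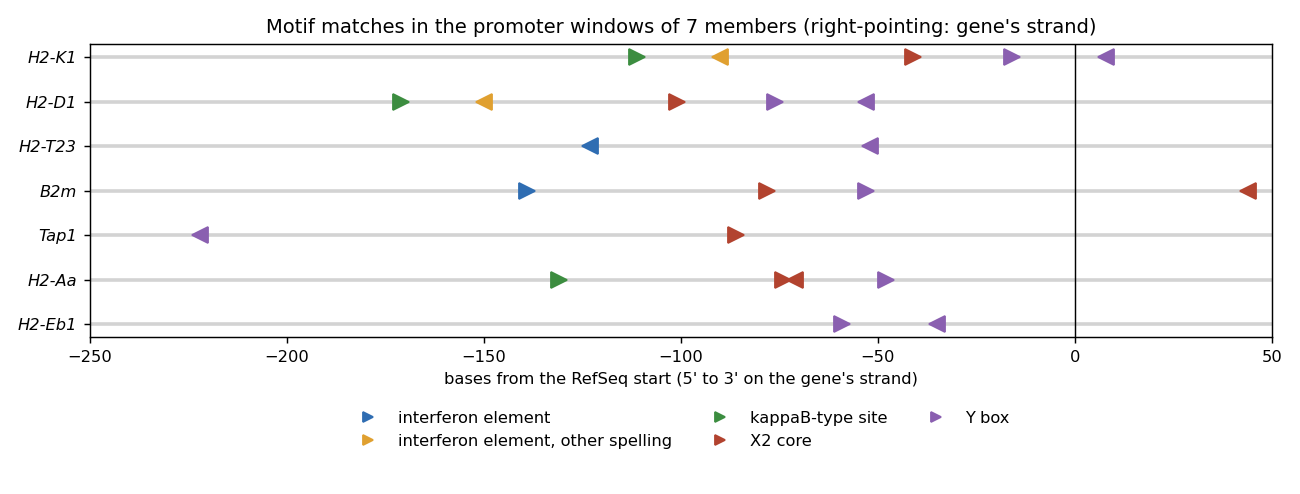
Positions of motif matches in the promoter windows of 7 members, in bases from the RefSeq start, with right-pointing marks for the gene's strand and left-pointing marks for the other strand. The X2 core and the Y box stand 25 bases apart in H2-K1, H2-D1 and B2m and 26 apart in H2-Aa, and 1 or the other spelling of the interferon element is marked in B2m, H2-T23, H2-K1 and H2-D1.

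Expression was read as the authors' normalised counts, with 2.65 M to 25.8 M reads a library recovered from the steps of the values, the lowest in 3xTg ketogenic replicate 2. In that library 1 read is worth 5.40 normalised counts, against 0.564 to 1.40 in the other 23. Thy1 checks the genotype labels, since the transgene cassette carries Thy1 sequence. It stood at 20385 to 29277 in 10 libraries labelled 3xTg and at 6952 to 8137 in 11 labelled WT, but at 8112 in the library labelled 3xTg ketogenic replicate 1, 9189 in the one labelled 3xTg control replicate 3 and 23048 in the one labelled WT MCT replicate 2. These 3 libraries go against their labels. Results below are given with all 24 libraries as labelled and, where they rest on these 3, with the other 21.

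Levels of the members spanned a wide range. Per kilobase of exon, B2m averaged 1317 ± 239 normalised counts (SD, n = 24), H2-D1 121.5 ± 24.2, H2-K1 90.5 ± 21.6, Tap2 23.9 ± 2.07 and H2-T23 18.5 ± 8.98. Cd74 followed at 11.1 ± 7.26, Tap1 at 6.72 ± 1.42, H2-Eb1 at 5.66 ± 3.06, H2-Aa at 2.36 ± 1.77 and H2-Ab1 at 2.15 ± 1.49 normalised counts per kilobase. The order B2m, H2-D1, H2-K1, Tap2 held in all 24 libraries. Below it the neighbours overlapped: Tap2 was above H2-T23 in 20 of 24 libraries, H2-T23 above Cd74 in 20, Cd74 above Tap1 in 17, Tap1 above H2-Eb1 in 17, H2-Eb1 above H2-Aa in 21 and H2-Aa above H2-Ab1 in 14. The class II chains were close to the counting limit, with medians of 9 reads for H2-Eb1, 6 for H2-Aa and 4.5 for H2-Ab1, and H2-Ab1 had 3 reads or fewer in 10 libraries.

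B2m lies on chromosome 2 (GRCm38, 122147686 to 122153083), and 8 of the members lie in the H2 complex of chromosome 17, from H2-K1 (33996017 to 34000347) to H2-T23 (36029773 to 36032855). Part of a class I transcript cannot be told from its relatives. Of all 50-base stretches of the annotated transcripts, 13.6% of those of H2-T23, 12.8% of H2-D1 and 9.63% of H2-K1 occur in another gene, most often H2-T-ps, H2-Q1 and H2-Q10. At 100 bases the shares were 3.15%, 3.59% and 0.957%. B2m, Cd74, H2-Ab1 and H2-Eb1 share no 50-base stretch with another gene. Translated from the longest open reading frame of the transcripts, H2-K1 (369 residues) and H2-D1 (362) are identical at 84.1% of aligned positions, H2-T23 (357) matches H2-K1 at 74.7%, H2-Ab1 and H2-Eb1 match at 61.6%, and Tap1 and Tap2 at 40.6%. Which H2 alleles each mouse carried cannot be read from a table of gene counts, and their part in the values of H2-K1, H2-D1 and H2-T23 was not tested. Exons of Tap1 overlap Psmb9 on the other strand over 212 bases and exons of Tap2 overlap the antisense genes Gm20496 and Gm15821, and the strand setting of the counting is not given in the sources used here.

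**Figure D2:**
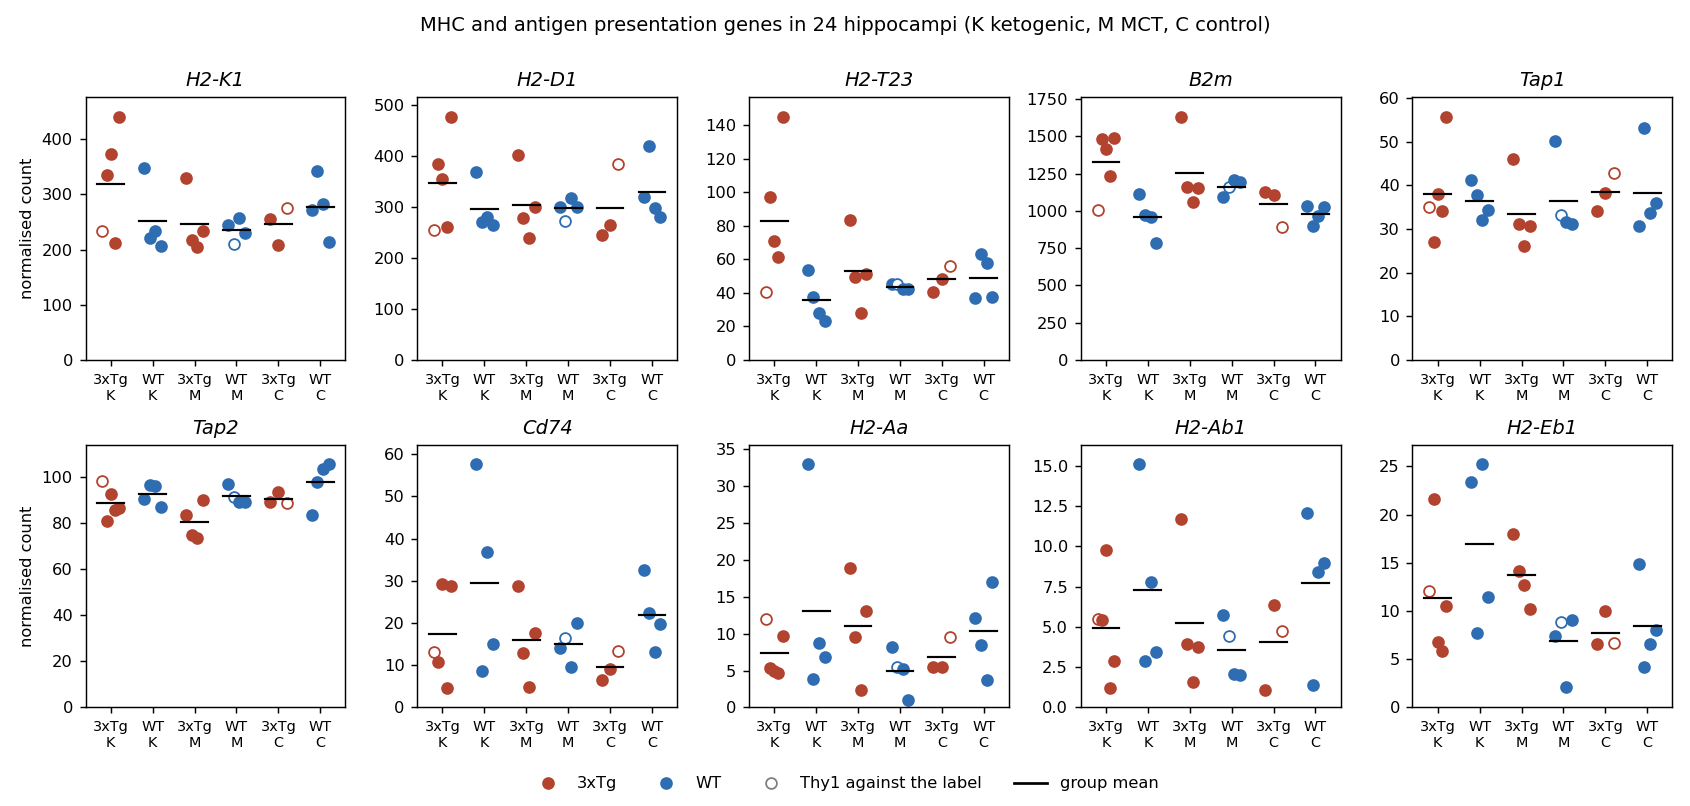
Normalised counts of the 10 members in each of 24 libraries, by group, with 3xTg left of WT on each diet, bars at group means and open circles for the 3 libraries whose Thy1 goes against the label. B2m and H2-T23 are highest in 3xTg libraries of the ketogenic diet and in 1 of the MCT diet, while the class II genes are spread within every group.

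The first comparison asked how the 3xTg genotype differed from WT. As labelled, none of the 10 members passed limma's test in any of the 4 genotype comparisons, and B2m and H2-T23 came closest. Averaged over diets, 0 of 10 members were called and 2 had an unadjusted p under 0.05, against 8.10% of all 14162 genes called, and edgeR called 0 (8.57% of genes) while DESeq2 called 1, B2m (10.0% of genes). On the ketogenic diet 0 of 10 were called (2 with an unadjusted p under 0.05) against 0.155% of genes, and edgeR called 0 (0.0353% of genes) while DESeq2 called 2, B2m and H2-T23 (0.996% of genes). On the MCT diet limma called 0 members (1 unadjusted) against 0% of genes and on the control diet 0 (0 unadjusted) against 0.0565%, and edgeR and DESeq2 called 0 on both (0% and 0.155% of genes on MCT, 0.0494% and 1.23% on the control diet). The members' median log2 difference was 0.02 averaged over diets and -0.02 on the ketogenic diet, beside -0.000824 and -0.00581 over all genes tested. In whole tissue, fewer cells of a type and less RNA per cell cannot be told apart.

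B2m, the light chain shared by all class I molecules, separated the genotypes most clearly on the ketogenic diet. It stood at 1004, 1486, 1415, 1234 and 1492 normalised counts in 3xTg mice, against 1115, 972, 961 and 783 in WT mice. The 3xTg library at 1004 is the one whose Thy1 goes against the label, and it is the only one of the 5 that lies within the WT range. The log2 difference was 0.47 ± 0.12 (SE, 95% interval 0.22 to 0.71, limma adjusted p = 0.0674), and with 21 libraries 0.56 ± 0.11 with no overlap between the groups (adjusted p = 0.00277). The share of all genes without overlap there is not given. On the MCT diet B2m stood at 1633, 1162, 1062 and 1155 in 3xTg mice, against 1091, 1162, 1210 and 1193 in WT mice, a log2 difference of 0.09 (95% interval -0.17 to 0.34). On the control diet it stood at 1129, 1108 and 895 in 3xTg mice, against 1033, 901, 964 and 1028 in WT mice, a log2 difference of 0.08 (-0.19 to 0.36). Both pairs of groups overlap, and the 3xTg value of 895 belongs to a library whose Thy1 goes against the label. Averaged over diets the log2 difference of B2m was 0.21 ± 0.07 (limma adjusted p = 0.0688), with 10 of 12 3xTg libraries above the WT mean. With 21 libraries it was 0.28 ± 0.07 (adjusted p = 0.00760), and all 10 3xTg libraries lay above the WT mean.

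H2-T23 (Qa-1b) followed the same order with a larger fold at a lower level. On the ketogenic diet it stood at 40.5, 97.2, 71.2, 61.2 and 145 normalised counts in 3xTg mice, against 53.5, 37.7, 28.2 and 22.96 in WT mice. The value of 97.2, in 3xTg replicate 2, is 18 reads in the library of lowest depth. Replicate 1, whose Thy1 goes against the label, is the only 3xTg value within the WT range, and replicate 5 is the highest of all 24 libraries. The log2 difference was 1.14 ± 0.30 (95% interval 0.52 to 1.76, limma adjusted p = 0.0790), and with 21 libraries 1.36 ± 0.30 (adjusted p = 0.00963). Leaving out 3xTg replicate 5 gave 0.91 with all other libraries in. On the MCT diet H2-T23 stood at 83.7, 49.7, 27.8 and 51.2 in 3xTg mice, against 45.2, 45.2, 42.1 and 42.2 in WT mice. On the control diet it stood at 40.8, 48.1 and 56.3 in 3xTg mice, against 37.1, 63.0, 58.0 and 37.6 in WT mice. The genotypes overlap on both of these diets, with log2 differences of 0.17 (95% interval -0.48 to 0.83) and 0.01 (-0.69 to 0.72). The background shares for the 21 libraries, over 14126 genes, are 13.2% averaged over diets (1 of 10 members, B2m), 3.62% on the ketogenic diet (2 of 10, B2m and H2-T23), 1.77% on the MCT diet (0 of 10, with 1 at an unadjusted p under 0.05) and 1.74% on the control diet (0 of 10, with 0).

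H2-K1 and H2-D1, the classical heavy chains, overlapped between genotypes on every diet with the libraries as labelled. On the ketogenic diet H2-K1 stood at 233, 335, 373, 212 and 441 normalised counts in 3xTg mice, against 347, 221, 233 and 207 in WT mice, and H2-D1 at 254, 384, 355, 260.0 and 477 in 3xTg mice, against 368, 269.7, 279.6 and 265 in WT mice. Their log2 differences were 0.31 (95% interval -0.07 to 0.70) and 0.20 (-0.16 to 0.55). In both genes 3 of the 5 3xTg libraries lay above the WT mean, and the spread within 3xTg was wide: H2-K1 averaged 319 ± 96.15 in 3xTg and 252 ± 64.4 in WT mice (SD, n = 5 and 4). On the MCT diet H2-K1 averaged 247 ± 57.0 in 3xTg and 235 ± 19.7 in WT mice, and on the control diet 246 ± 33.7 in 3xTg and 278 ± 52.3 in WT mice. H2-D1 averaged 304 ± 69.2 in 3xTg and 297 ± 18.7 in WT mice on MCT, and 297 ± 75.3 in 3xTg and 329 ± 62.2 in WT mice on the control diet. In both genes the 3xTg MCT mean rests on replicate 1, at 330.4 for H2-K1 and 401 for H2-D1, with the other 3 at 205 to 234 and at 238 to 300.5. With 21 libraries the 2 remaining 3xTg values of H2-D1 on the control diet, 245 and 263, lay below all 4 WT values (log2 difference -0.35 ± 0.20, limma adjusted p = 0.417). Groups this small can separate without a difference, and the share of all genes that do so is not given.

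The peptide transporter subunits differed little. Tap1 stood at 27.0 to 55.7 in 3xTg and at 32.03 to 41.2 in WT mice on the ketogenic diet, with a log2 difference of 0.03 (95% interval -0.40 to 0.45). Tap2 varied least of all members between libraries. It was at 81.0 to 98.5 in 3xTg and at 87.2 to 96.7 in WT mice on the ketogenic diet, at 73.8 to 90.2 in 3xTg and at 89.4 to 97.0 in WT mice on MCT, and at 88.7 to 93.6 in 3xTg and at 83.5 to 105.7 in WT mice on the control diet. Averaged over diets Tap2 had a log2 difference of -0.12 ± 0.06 (limma adjusted p = 0.217), with 1 of 12 3xTg libraries above the WT mean.

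Class II genes had low counts and no called difference. Cd74 stood at 13.1, 10.8, 29.2, 4.71 and 28.8 normalised counts in 3xTg mice, against 57.7, 8.70, 36.9 and 14.9 in WT mice on the ketogenic diet, where 10.8 in 3xTg replicate 2 is 2 reads. On MCT it stood at 28.8, 12.98, 4.76 and 17.7 in 3xTg mice, against 14.0, 16.6, 9.47 and 20.1 in WT mice. On the control diet it stood at 6.61, 9.08 and 13.4 in 3xTg mice, against 32.5, 22.4, 13.1 and 19.7 in WT mice. The 3xTg means were below WT on the ketogenic and control diets, and the groups overlapped on all 3 diets. On the control diet the overlap rests on 13.4 in 3xTg replicate 3, whose Thy1 goes against the label. With 21 libraries the remaining 3xTg values, 6.61 and 9.08, lay below every WT value, without a call (log2 difference -1.32). Its log2 difference was -0.61 ± 0.32 averaged over diets (95% interval -1.26 to 0.04, limma adjusted p = 0.239) and -1.08 ± 0.58 on the control diet (adjusted p = 0.398). H2-Eb1 did not overlap between genotypes on MCT: 18.0, 14.1, 12.7 and 10.2 in 3xTg mice, against 7.40, 8.83, 2.10 and 9.05 in WT mice, a log2 difference of 1.03 ± 0.44 (adjusted p = 0.640). Groups this small can separate without a difference. For H2-Eb1 and Cd74 alike, the share of all genes that separate in this way is not given. H2-Aa ranged from 4.71 to 12.04 in 3xTg and from 3.87 to 32.9 in WT mice on the ketogenic diet, and H2-Ab1 from 1.18 to 9.75 in 3xTg and from 2.90 to 15.1 in WT mice. The ketogenic log2 differences of H2-Aa, H2-Ab1 and H2-Eb1 were -0.44 (95% interval -1.59 to 0.71), -0.44 (-1.65 to 0.78) and -0.52 (-1.39 to 0.34).

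Markers of other tissue stood beside the class II values. Summed over 10 choroid plexus markers, WT control replicate 1 had 23462 and WT ketogenic replicate 1 had 10843 normalised counts, against 2558 to 4076 in the other 22 libraries. Cd74 was highest of its group in both, at 32.5 and 57.7, and H2-Aa was at 32.9 in WT ketogenic replicate 1. WT control replicate 1, with the higher choroid plexus sum, had H2-Aa at 12.06. WT ketogenic replicate 1 was also the highest of its group for markers of meningeal fibroblasts (2709, against 1070 to 1545 in the other 3), endothelium (4219, against 3427 to 3716), border macrophages (404, against 247 to 368) and monocytes and neutrophils (15.1, against 1.93 to 3.44). Without that library the ketogenic log2 difference of Cd74 was -0.23 and that of H2-Aa 0.12. The part of these tissues and cells in the class II values was not tested. Border macrophage markers summed to 262 to 411 in 3xTg and 247 to 404 in WT mice on the ketogenic diet, to 263 to 554 in 3xTg and 246 to 330.0 in WT mice on MCT, and to 268 to 342 in 3xTg and 268 to 358 in WT mice on the control diet, with no marker of the 10 at 0 throughout. Homeostatic microglia markers summed to 6036 to 6853 in 3xTg and 5212 to 6744 in WT libraries. The T and NK cell list summed to at most 7.17, with Cd3e at 0 in 20 libraries. The B cell list, at low counts, summed to 12.7 to 24.3 in 3xTg and 7.73 to 12.3 in WT mice on MCT and to 5.72 to 10.9 in 3xTg mice on the control diet. These are the comparisons in which H2-Eb1 did not overlap, and the B cell sums did not overlap in them either; their part in H2-Eb1 was not tested.

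**Figure D3:**
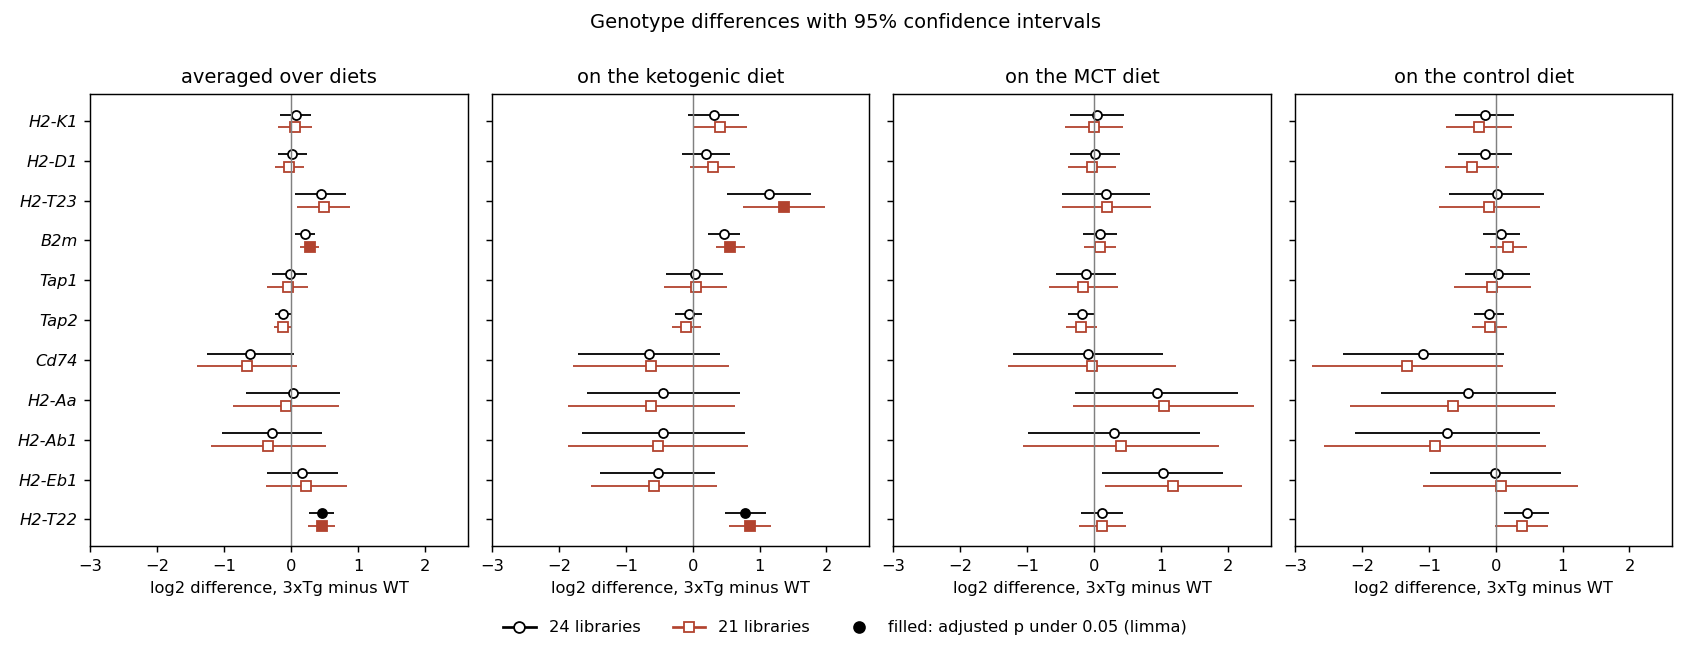
Log2 differences, 3xTg minus WT, with 95% confidence intervals from limma for the 10 members and H2-T22, averaged over diets and on each diet, with 24 libraries as labelled (circles) and with 21 (squares). Filled marks have an adjusted p under 0.05: B2m and H2-T23 are filled with 21 libraries, and H2-T22 with both.

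The second comparison asked how each diet differed from the control diet. No member was called by limma in any of the 9 diet and interaction comparisons, where all genes gave 0% called in 7 and 0.00706% in the MCT comparison within WT and in ketogenic against MCT. At an unadjusted p under 0.05 limma had B2m in ketogenic against control within 3xTg, B2m in MCT against control averaged over genotypes, and B2m and H2-T23 in the interaction of ketogenic diet and genotype, and none in the other 6. edgeR and DESeq2 called 0 members in all 9 as well. In ketogenic against control the members' median log2 difference was 0.27 with 8 of 10 positive within 3xTg, and -0.06 with 3 of 10 positive within WT.

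Within 3xTg mice the ketogenic diet went with higher mean levels of the 4 class I genes, none of them called. B2m averaged 1326 ± 208 on the ketogenic and 1044 ± 130 on the control diet (SD, n = 5 and 3), a log2 difference of 0.34 ± 0.13 (limma adjusted p = 0.724), and H2-T23 averaged 83.0 ± 40.3 on the ketogenic and 48.4 ± 7.75 on the control diet, a log2 difference of 0.65 ± 0.33 (adjusted p = 0.734). H2-K1 differed by 0.33 ± 0.20 and H2-D1 by 0.21 ± 0.19 on the same scale. All 4 pairs of groups overlap. With 21 libraries the differences were 0.33 for B2m, 0.98 for H2-T23, 0.51 for H2-K1 and 0.50 for H2-D1, on 4 and 2 mice, with limma adjusted p of 0.747 to 0.762, and the groups of B2m and H2-T23 no longer overlapped. Groups of so few mice can separate without a difference, and the share of all genes that do so is not given here. Within WT mice the 4 differences had the other sign: B2m averaged 958 ± 136 on the ketogenic and 981 ± 62.2 on the control diet, with a log2 difference of -0.04 (95% interval -0.30 to 0.21), and H2-T23 averaged 35.6 ± 13.4 on the ketogenic and 48.9 ± 13.5 on the control diet, with -0.48 (-1.13 to 0.18). The difference between these diet effects was itself tested. The interaction was 1.13 ± 0.46 for H2-T23 (unadjusted p = 0.0210, limma adjusted p = 0.724), 0.38 ± 0.18 for B2m (0.0424 and 0.742), 0.48 ± 0.28 for H2-K1 and 0.35 ± 0.26 for H2-D1, and none passed the adjusted threshold. With 21 libraries it was 1.46 for H2-T23, 0.66 for H2-K1, 0.65 for H2-D1 and 0.37 for B2m, with adjusted p of 0.748 or 0.749.

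On the MCT diet B2m had a higher mean than on the control diet in both genotypes, without a call. Against the control diet the log2 difference of B2m was 0.25 ± 0.13 in 3xTg and 0.25 ± 0.12 in WT mice (limma adjusted p = 0.999 and 0.989), and in WT all 4 MCT libraries lay above all 4 control libraries. Averaged over genotypes it was 0.25 ± 0.09 (95% interval 0.06 to 0.44, unadjusted p = 0.0115, adjusted p = 1). The MCT interaction of B2m had a 95% interval of -0.37 to 0.38. With 21 libraries the differences were 0.14 in 3xTg and 0.25 in WT mice. H2-Eb1 did not overlap between MCT and control diet in 3xTg mice, at 10.2 to 18.0 on MCT and 6.61 to 9.99 on the control diet, with a log2 difference of 0.75 ± 0.48 (adjusted p = 0.999). For this separation and that of B2m in WT mice, the share of all genes that do the same is not given. In WT mice H2-Aa averaged 5.00 ± 2.98 on MCT and 10.3 ± 5.63 on the control diet, a log2 difference of -0.95 ± 0.59 (adjusted p = 0.989). Averaged over genotypes, ketogenic against control gave 0.65 ± 0.32 for H2-Eb1, and ketogenic against MCT gave 0.20 ± 0.14 for H2-K1, with adjusted p of 0.946 and 0.981.

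Among the other genes of the pathway, 1 class I relative was called. H2-T22, a class I-like gene whose product binds receptors of some gamma delta T cells, stood at 134, 184, 143, 182 and 169 normalised counts in 3xTg mice, against 98.8, 123, 84.5 and 72.3 in WT mice on the ketogenic diet. The groups do not overlap. The log2 difference was 0.79 ± 0.15 (limma adjusted p = 0.0337), and averaged over diets 0.46 ± 0.09 (adjusted p = 0.00327), with 12 of 12 3xTg libraries above the WT mean. On MCT it stood at 122 to 181 in 3xTg and 121 to 137 in WT mice, where the groups overlap, and on the control diet at 118 to 139 in 3xTg and 73.8 to 116 in WT mice, where they do not. The share of all genes whose groups do not overlap is not given for either diet on which H2-T22 separated. Of the 3xTg libraries with discordant Thy1, the ketogenic one is the lowest of its group and the control one the highest. The ketogenic call was lost in edgeR (adjusted p = 0.058), in limma with the compared groups alone (0.0571) and in limma without any 1 of 3xTg ketogenic replicates 2, 3, 4 and 5 or WT ketogenic replicates 3 and 4 (0.0612 to 0.123). Of its 50-base transcript stretches 34.5% occur in another gene, 31.2% in H2-T10, so its count is uncertain between the pair. In 3xTg against WT on the ketogenic diet, 1 of 12 tested genes of the class I list was called, this one, with 8 of 12 positive and a list median of 0.30 on the log2 scale.

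The remaining lists held no called gene with 24 libraries in the comparisons averaged over diets and on the ketogenic diet. Peptide loading (tapasin, calreticulin and the like) had 2 of 6 positive on the ketogenic diet with a median of -0.04, and the immunoproteasome, which cuts peptides for class I, had 6 of 6 positive with a median of 0.08. Class II loading had 3 of 6 positive and a median of 0.03, and the regulators of MHC genes had 10 of 16 and 0.01. The values closest to the threshold there were Canx at 0.09 ± 0.04, Psme1 at 0.13 ± 0.09, Lgmn at -0.15 ± 0.07 and Rfxap at 0.14 ± 0.06, with limma adjusted p of 0.340, 0.509, 0.312 and 0.322. Interferon-response genes stood apart in size: 26 of 29 were positive on the ketogenic diet with a median log2 difference of 0.45, beside -0.01 over all genes, and none was called. Mx2 and Oasl2, antiviral effectors, were at 1.14 ± 0.30 and 1.45 ± 0.43 (adjusted p = 0.0780 and 0.114). With 21 libraries 28 of 29 were positive with a median of 0.63, and limma called 7 higher in 3xTg, with the smallest p for Stat2 (0.44), Mx2 (1.31), Oasl2 (1.77) and Bst2 (1.60 on the log2 scale). In that fit 3.62% of all genes were called. Averaged over diets with 21 libraries, where 13.2% of all genes were called, Stat2, Usp18 and the kinase Jak2 were higher in 3xTg. The class I relative Mr1 was lower there (-0.39 ± 0.09, limma adjusted p = 0.00635). Averaged over diets with 24 libraries the interferon list had 25 of 29 positive and a median of 0.14, and on the control diet 12 of 29 and -0.16. In ketogenic against control within 3xTg it had 27 of 29 positive with a median of 0.56 and 0 called, and within WT 10 of 29 and -0.05.

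The members were then compared with each other, library by library, after the mean of each group was taken away on the log2 scale. Of 45 pairs, 12 had a Benjamini-Hochberg adjusted permutation p under 0.05, with libraries permuted within groups. H2-K1 and H2-D1 had a Pearson r of 0.90 and a Spearman rho of 0.88 (n = 24 libraries, adjusted permutation p = 0.0009 and 0.00045), and r was 0.87 without the 2 libraries farthest from the median. H2-D1 and H2-T23 had r = 0.85 and rho = 0.75 (adjusted permutation p = 0.00225 and 0.0157, r = 0.77 without 2), and H2-K1 and H2-T23 had r = 0.80 and rho = 0.72 (0.0084 and 0.0243, r = 0.78 without 2). These heavy chains share part of their sequence, as given above. Among class II genes, Cd74 and H2-Ab1 had r = 0.64 and rho = 0.62 (adjusted permutation p = 0.0325 and 0.0509, r = 0.53 without 2), and H2-Ab1 and H2-Eb1 had r = 0.58 and rho = 0.54 (0.0369 and 0.0781, r = 0.48 without 2). Across the classes, Cd74 and H2-D1 had r = 0.66 and rho = 0.67 (adjusted permutation p = 0.0325 and 0.0243, r = 0.57 without 2), and Cd74 and H2-K1 had r = 0.67 and rho = 0.61 (0.0369 and 0.0725, r = 0.56 without 2). H2-T23 and B2m had r = 0.67 and rho = 0.41 (adjusted permutation p = 0.0436 and 0.215, r = 0.55 without 2), so the rank relation did not pass. Tap2 had no pair that passed, with r between -0.23 and 0.31.

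**Figure D4:**
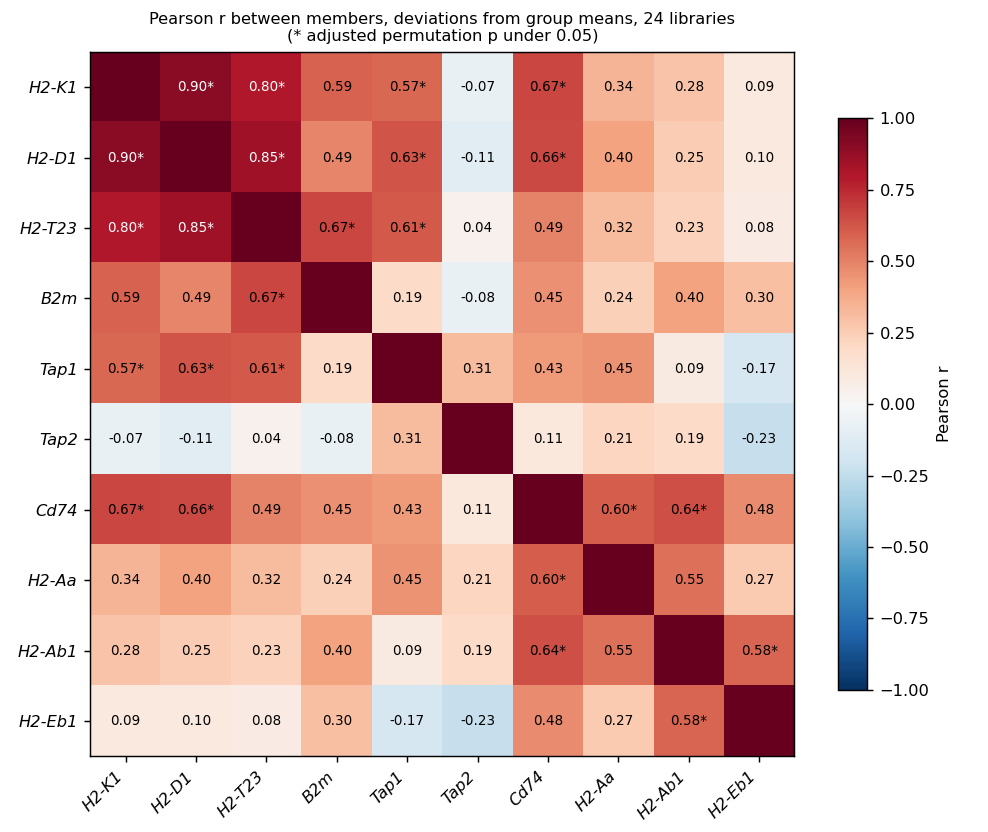
Pearson r for the 45 pairs of members over 24 libraries, from log2 values with group means removed, with an asterisk for an adjusted permutation p under 0.05. The block of H2-K1, H2-D1 and H2-T23 reaches 0.80 to 0.90, and Tap2 stays between -0.23 and 0.31.

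The class I heavy chains and B2m followed the summed interferon-response genes across libraries, and the class II gene Cd74 did so by rank. That sum was 2814 to 3481 in 4 libraries, 3xTg ketogenic replicates 2, 3 and 5 and 3xTg MCT replicate 1, and 1819 to 2408 in the other 20. The library labelled 3xTg ketogenic replicate 1, whose Thy1 goes against the label, was at 1866. Over 50 relations of members with marker sums, H2-T23 had r = 0.88 and rho = 0.69 with the interferon sum (adjusted permutation p = 0.00125 and 0.0244, r = 0.84 without the 2 farthest libraries), H2-D1 r = 0.83 and rho = 0.81 (0.00125 and 0.003, r = 0.79), B2m r = 0.80 and rho = 0.66 (0.016 and 0.0439, r = 0.64) and H2-K1 r = 0.74 and rho = 0.72 (0.0211 and 0.0244, r = 0.68). With 21 libraries r was 0.85 for H2-T23, 0.85 for H2-D1, 0.84 for B2m and 0.72 for H2-K1, and the rho of H2-T23 and H2-K1 no longer passed (adjusted permutation p = 0.065 and 0.146). Cd74 had r = 0.61 and rho = 0.74 with 24 libraries (adjusted permutation p = 0.113 and 0.0244). With 21 libraries it had r = 0.73 and rho = 0.64 (0.041 and 0.0963). The transporter subunits did not pass with 24 libraries: Tap1 had r = 0.43 and rho = 0.28 (0.249 and 0.409), and Tap2 r = -0.09 and rho = -0.10 (0.82 and 0.739). Because 4 libraries stand apart, the relation was also computed in the other 20. There H2-T23 had r = 0.76 and rho = 0.71 (adjusted permutation p = 0.018 and 0.0425, over 10 members) and H2-D1 r = 0.58 and rho = 0.65 (0.0115 and 0.0151), while B2m had r = 0.51 and rho = 0.43 (0.305 and 0.384) and H2-K1 r = 0.34 and rho = 0.30 (0.309 and 0.384). Cd74 had r = 0.46 and rho = 0.43 among these 20 (adjusted permutation p = 0.309 and 0.384). The sum spans a narrower range among these 20, and a p that misses the threshold there does not show that a relation is absent. H2-Eb1 went with the border macrophage sum (r = 0.55, rho = 0.59, adjusted permutation p = 0.0368 and 0.0345, r = 0.61 without 2), and with 21 libraries that relation missed the threshold (0.0597 and 0.0904). H2-Aa had r = 0.64 and rho = 0.57 with the same sum (adjusted permutation p = 0.056 and 0.0691). With 21 libraries H2-Aa had r = 0.71 and rho = 0.66 (0.0325 and 0.065), so it passed by r alone. A negative relation passed by rank alone, that of H2-D1 with the homeostatic microglia sum. It had r = -0.51 and rho = -0.61 (adjusted permutation p = 0.1 and 0.0244), and with 21 libraries it missed the threshold (0.223 and 0.0963).

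**Figure D5:**
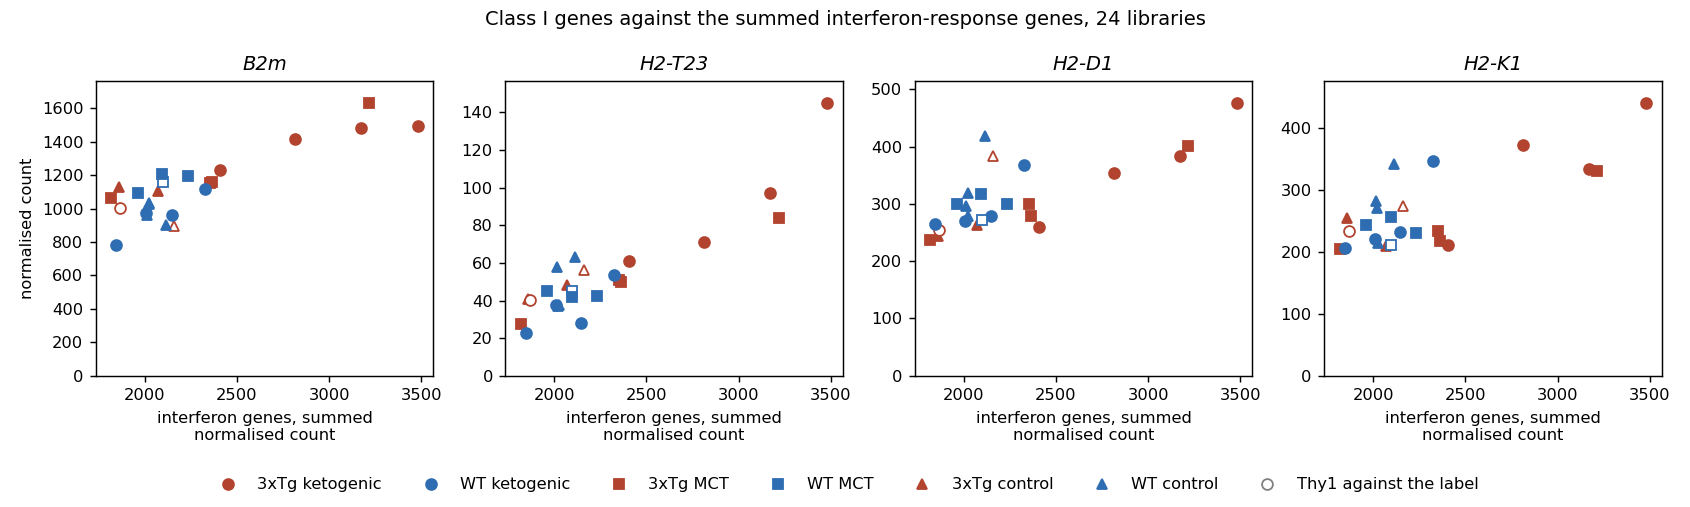
Normalised counts of B2m, H2-T23, H2-D1 and H2-K1 against the summed normalised counts of the interferon-response genes in 24 libraries, by genotype (colour) and diet (shape), with open marks for the 3 libraries whose Thy1 goes against the label. The 4 libraries at 2814 and above on the horizontal axis are labelled 3xTg, 3 of the ketogenic and 1 of the MCT diet.

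The genes whose deviations were most like a member's, among 13824 others, were given by Pearson r over the 24 libraries as a description. For B2m they were Oasl2 (0.80), Clint1 (0.79), Bst2 (0.76), Ptgfr (0.75) and Dnajc9 (0.75), and for Cd74 Nid1 (0.82), Igf2 (0.77), Col1a2 (0.76), Bgn (0.73) and Proser2 (0.72). Oasl2 and Bst2 are interferon-induced genes, and Col1a2 and Bgn encode extracellular matrix. The top gene was H2-Q4 for H2-K1 (0.87), Irgm2 for H2-D1 (0.86) and Lgals3bp for H2-T23 (0.88). It was Sdk2 for Tap1 (0.82), Slc52a3 for Tap2 (0.73), Olfm3 for H2-Aa (0.79), Slc18a2 for H2-Ab1 (0.72) and Tubgcp3 for H2-Eb1 (0.77).

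Genes near the members were called about as often as genes elsewhere. In 3xTg against WT averaged over diets, 10 of 115 other genes starting within 5 Mb of B2m were called (8.70%), 5 in each direction, and 6 of 75 between H2-K1 and H2-T23 (8.00%), against 8.10% of all genes. Between H2-K1 and H2-T23, C4b, a complement component, was higher in 3xTg at 0.40 ± 0.12 (limma adjusted p = 0.0454), and Prrc2a, Cdsn, Bag6, Vars and Gnl1 were lower.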

How the data were processed

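RNA was taken from hippocampus with TRIzol and RNeasy columns (RIN above 8), and libraries were made from 500 ng with a KAPA mRNA HyperPrep kit, UMI adapters and 11 PCR cycles, per the labels' protocols. Trimmomatic, STAR and GRCm38 are named in the submitters' processing notes. Counter, annotation, strand setting, use of UMIs and normalisation tool were not given in the sources used here. A signal table was deposited by the authors, holding normalised counts for 21793 rows and 24 libraries. All values, 100%, were whole multiples of 1 step per library (tolerance 0.01 reads), so whole read counts were recovered from the deposited table. Genes with 10 or more normalised counts in 3 or more libraries were kept (14162). The main test was limma 3.58.1 (R 4.3.3) on log2(value + 1), with 6 group means, a mean-variance trend and Benjamini-Hochberg adjustment over all kept genes, called at 0.05. Fold changes on that scale understate changes of low genes. edgeR 4.0.16 and DESeq2 1.42.0 were run on the recovered reads as alternatives. For limma the alternatives were pseudocounts of 0.5 and 5, other filters, TMM scaling, the compared groups alone, a replicate block, 21 libraries and each library left out. The test was tried on simulated data. Correlations used log2 values less group means, with 100000 permutations within groups. Named genes outside the 10 members were up to 4 called genes of each list with the lowest p, or up to 2 where none was called, and for likeness the gene with the highest Pearson r (5 for B2m and Cd74), predicted genes left out. The members and lists were chosen with earlier results of these data known. Rows for H2-L, H2-Q8, H2-T9, H2-Ea and Ifi30 were not analysed here. Same-numbered replicates were not paired by the labels. Where groups are said not to overlap, the share of all genes whose groups do the same is not given.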

Additional observations from a re-analysis of the deposited data

Results flagged for a closer look

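In 50 groups of 4 or 5 libraries, 3 values stood far from the rest of their group by a gap test, where chance gives about 1 in 20. The 3 found are near that share, so their number is about what chance gives. H2-D1 was at 368 normalised counts in WT ketogenic replicate 1, with the other 3 libraries of the group at 265 to 279.6. In the same library H2-Aa was at 32.9, with the other 3 at 3.87 to 8.74, and choroid plexus markers were high there, as given above. Tap1 was at 50.1 in WT MCT replicate 1, with the other 3 at 31.2 to 33.1.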

How the results depend on the processing

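As labelled, limma called 0 members between genotypes. Averaged over diets the number called was 1 (B2m) in DESeq2 and 1 without the 3 libraries whose Thy1 goes against the label, where 10.0% and 13.2% of all genes were called, and 0 to 1 when each library was left out. On the ketogenic diet it was 2 (B2m and H2-T23) in DESeq2, 2 without those 3 libraries (0.996% and 3.62% of all genes) and 0 to 2 when each library was left out. Leaving out each library gave 576 (without 3xTg control replicate 1) to 1511 (without WT MCT replicate 2) genes called averaged over diets, and 0 to 325 on the ketogenic diet, the highest without 3xTg ketogenic replicate 1. B2m averaged over diets was called without 3xTg control replicate 3, 3xTg ketogenic replicate 1, 3xTg MCT replicate 3 or WT ketogenic replicate 1 (limma adjusted p = 0.0333, 0.0194, 0.0469 and 0.0451). Of 45 pairs of members, 12 passed with all libraries and 2 among the 20 below the gap in the interferon sum, an alternative chosen after seeing the data.

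Some log2 differences near 0 changed sign. Averaged over diets, H2-K1 was -0.002043 with the replicate block. H2-D1 was -0.03678 with the block, -0.0284 without the 3 libraries and -0.04788 to 0.05978 leaving out each. Tap1 was 0.009637 in edgeR, 0.00805 in DESeq2 and -0.07493 to 0.03303 leaving out each. H2-Aa was -0.01739 with a pseudocount of 5, -0.069 in edgeR, -0.08249 in DESeq2, -0.02623 with the block, -0.07527 without the 3 libraries and -0.1251 to 0.2152 leaving out each. On the ketogenic diet Tap1 was -0.1168 with the block and -0.1168 to 0.1378 leaving out each, and H2-Aa -0.8113 to 0.1228. On the MCT diet H2-T23 was -0.07631 to 0.4433 and B2m -0.04725 to 0.1596 leaving out each. On the control diet H2-T23 was -0.002642 in DESeq2, -0.04954 with the block, -0.09957 without the 3 libraries and -0.1033 to 0.1462 leaving out each. B2m in ketogenic against control within WT was -0.121 to 0.04871 leaving out each. The causes were not tested. Over 51 single-gene results, 1646 of 1709 values kept direction and side of the threshold, 9 lost a call, 13 gained one and 41 changed sign.

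Same-numbered libraries did not deviate together (median correlation -0.000279 over 55 pairs, 11 over 0.1), and 6 of 24 libraries correlated best with their own number. With a replicate block, which removes the single library numbered 5, limma called 0 members, H2-T22 lost its ketogenic call (adjusted p = 0.056), and there were 1177 genes called averaged over diets and 9 on the ketogenic diet, against 1147 and 22 without it. Genes called on the ketogenic diet numbered 5 in edgeR, 141 in DESeq2 and 511 with 21 libraries. Depth limits the class II chains, which rest on few reads.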
